A study of Mus musculus with 12 samples.

Results

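Serotonin handling in the newborn visual thalamus was followed through 8 genes of the 24480 in the count tables. They were taken by symbol and are the plasma membrane serotonin transporter *Slc6a4*, the vesicular monoamine transporter *Slc18a2*, the monoamine oxidases *Maoa* and *Maob*, and the receptors *Htr1a*, *Htr1b*, *Htr2c* and *Htr7*. RNA-seq was made from the dorsolateral geniculate nucleus (dLGN), the thalamic relay between retina and visual cortex, at postnatal day 0. There were 12 libraries in 4 groups of 3, and each library was a pool of dLGNs from 3 animals. Mutants were homozygous for a loxP-flanked allele of *Sox2* or of *Nr2f1*, the genes of 2 transcription factors, and carried *RORα*-Cre, a knock-in at the 3′ end of *Rora* that deletes in postmitotic neurons of the sensory thalamus. Controls of the *Sox2* line were *Sox2* flox/flox or flox/+ without Cre. The labels of the *Nr2f1* controls name *Nr2f1* flox/flox and Ror-alphaCre and then state that there is no Cre, and the study's methods describe controls as littermates lacking Cre. The presence of Cre and the deletion therefore cannot be told apart in either line. Libraries are named here as in the count tables, controls 1, 2 and 3 and mutants 1, 3 and 4 in the *Sox2* line, and controls B, D and E and mutants A, B and C in the *Nr2f1* line.

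Serotonin is made by neurons of the brainstem raphe nuclei, whose axons reach the thalamus. The transporter encoded by *Slc6a4* carries it from outside the cell into the cytoplasm, VMAT2 encoded by *Slc18a2* loads it into vesicles, and the monoamine oxidases on the mitochondrial outer membrane break it down. In rodents, glutamatergic relay neurons of the sensory thalamus transiently express both transporters around birth, so that they take up and store serotonin that they do not make. The receptors of the 1A and 1B types lower cyclic AMP through Gi proteins, the 2C type acts through Gq and phospholipase C, and the type encoded by *Htr7* raises cyclic AMP through Gs.

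Levels are given in CPM, library-scaled counts (TMM factors, set within each line). Total counts per library lay between 39293470 and 50095336, and p-values measure the spread between pools. All 8 genes passed the filter on low counts in both lines. *Sox2* fell to between 116 and 152 CPM in the mutants of its line from between 361 and 382 in the controls, and *Nr2f1* to between 101 and 150.6 from between 311 and 380 in its line. The thalamic relay neuron marker *Slc17a6*, the vesicular glutamate transporter, had its lowest level at 116 CPM. The serotonergic neuron markers *Tph2*, *Fev*, *Lmx1b* and *En1* were below 1 CPM in all 12 libraries, with *Tph2* at 0.37 CPM at most. *Gata2*, the remaining gene of that list and one that other thalamic cells also use, lay between 6.72 and 17.9 CPM. Of 6 catecholaminergic markers, 5 were below 1 CPM everywhere and *Th* reached 1.56 CPM. *Tph1*, the other tryptophan hydroxylase gene, reached 1.27 CPM at most. *Xist* was below 1 CPM in 3 libraries (*Sox2* control 2 and mutant 1, *Nr2f1* control E), and the 4 Y-linked genes were at 0 in *Nr2f1* mutant A, so that pools differed in sex.

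Before any comparison with mutants, the genes spanned a wide range in control tissue. Divided by median transcript length, *Slc18a2* stood first with 107 ± 0.595 CPM per kb (SD, n = 3) in *Sox2* line controls and 104 ± 11.4 in *Nr2f1* line controls. *Slc6a4* followed with 28.1 ± 2.13 and 19.2 ± 6.35 CPM per kb. These ranges did not overlap with those of the next genes in either line. *Htr7* (11.8 ± 1.10 and 11.4 ± 0.341 CPM per kb) and *Htr1b* (9.62 ± 1.40 and 11.0 ± 1.82) came next, and their ranges overlapped in both lines. *Maoa* lay at 7.88 ± 0.436 and 6.39 ± 0.375 CPM per kb, below both. The last 3 genes were all under 1 CPM per kb, with *Maob* at 0.654 ± 0.0307 and 0.517 ± 0.133, *Htr2c* at 0.551 ± 0.246 and 0.642 ± 0.168, and *Htr1a* at 0.428 ± 0.138 and 0.271 ± 0.0549. *Maob* and *Htr2c* changed places between the lines and overlapped in both. *Htr1a* overlapped *Htr2c* in the *Sox2* line only. With the longest annotated transcript instead, *Htr1b* fell behind *Maoa* in the *Sox2* line, at 6.10 against 7.88 CPM per kb. The vesicular transporter was thus the most abundant transcript of the set, and *Maoa* transcript exceeded *Maob* transcript per length by between 9.61 and 15.3 times in the 6 control libraries.

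In *Sox2* mutants both transporters and *Htr1b* fell and *Maoa* rose, which makes 3 of the 8 genes called down and 1 called up (edgeR FDR<0.01). Of the 15602 genes tested in that line, 4.19% were called down and 3.90% up. In *Nr2f1* mutants *Slc6a4* and *Htr7* fell and 0 of the 8 rose by edgeR (3 with higher levels at an unadjusted p below 0.05, and 2 called up by DESeq2), against 1.32% of 15600 genes called down and 1.22% up. At FDR<0.05 the calls were 7 of 8 and 4 of 8, against 19.8% and 7.40% of all genes tested. For 7 genes of the *Sox2* line and 5 of the *Nr2f1* line every mutant library lay on one side of every control library, beside 37.9% and 28.6% of all genes tested. The median log2 fold change of the 8 genes was 0.05 and 0.00, beside 0.00 and 0.01 over all genes tested, so that the set did not move in a single direction. Values given as, for example, -1.41 ± 0.13 beside an FDR are log2 fold changes with their SE. For a single gene, 3 libraries against 3 cannot give a two-sided p below 0.1 in an exact permutation test. A test of line by genotype over the 12 libraries asked whether the change differed between the lines, and it called 1 of the 8 genes, *Slc18a2*, and 1.44% of 15989 genes.

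**Figure D1:**
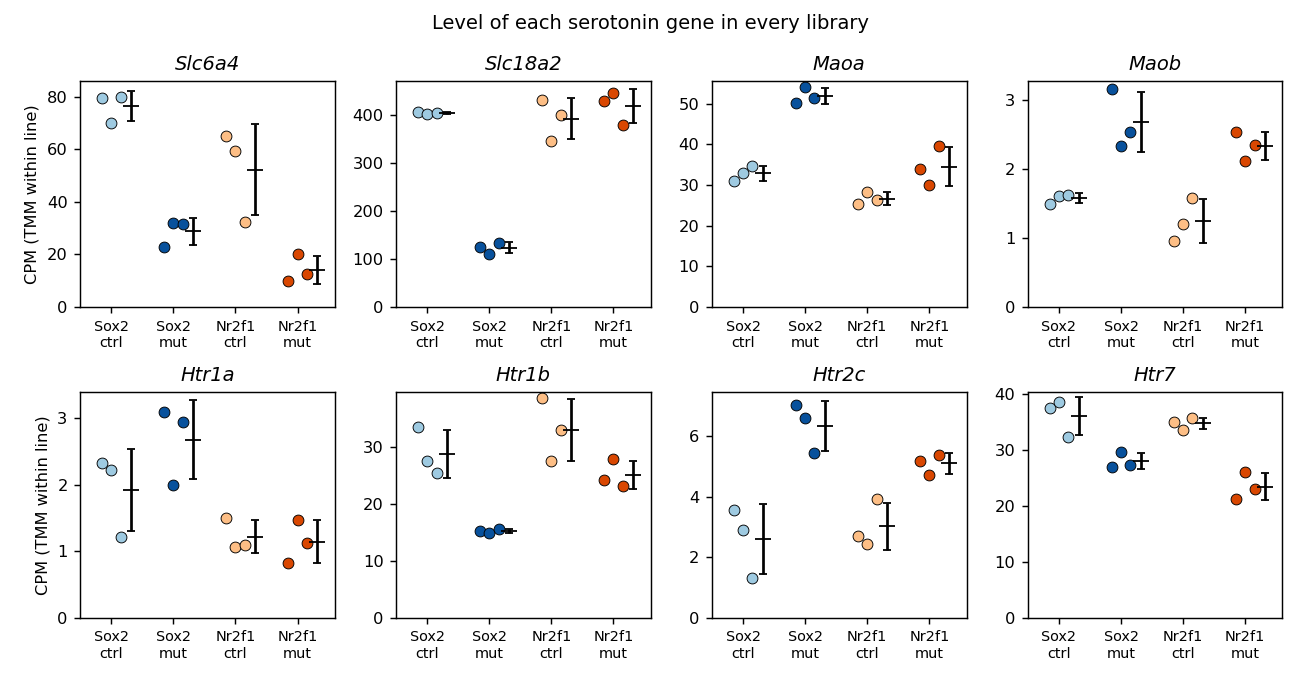
Level of each of the 8 genes in the 12 libraries, in CPM scaled by TMM within each line (vertical axes from 0, 1 panel per gene). Points are libraries, and the bar beside each group gives its mean ± SD over 3 libraries. *Slc18a2* is low only in the *Sox2* mutants, at 111 to 134 CPM, whereas *Slc6a4* is low in both mutants.

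*Slc6a4*, on chromosome 11 of GRCm38 from 76998597 to 77032343 (plus strand), was measured at 79.7, 69.8 and 80.1 CPM in *Sox2* line controls 1, 2 and 3, and at 22.8, 32.1 and 31.5 CPM in mutants 1, 3 and 4. Every mutant library was below every control library, and the mutant mean of 28.8 ± 5.21 CPM stood against 76.5 ± 5.80 in controls. Mutants thus had 37.6% of the control level (log2 fold change -1.41 ± 0.13 SE, edgeR FDR 0.00013). In the *Nr2f1* line, controls B, D and E had 64.9, 59.2 and 32.5 CPM and mutants A, B and C had 9.94, 20.1 and 12.4 CPM. The groups again did not overlap, although control E was far below the other controls. Here the mutants had 27.2% of the control level (-1.88 ± 0.29, edgeR FDR 0.0051). The call in *Nr2f1* mutants rested on all libraries but control E and mutant B. Without control B, control D, mutant A or mutant C it was lost, with log2 fold changes of -1.70, -1.78, -1.68 and -1.79 (edgeR FDR 0.0264, 0.0252, 0.0286 and 0.0201). Without control E the log2 fold change was -2.13 (edgeR FDR 0.0025). The 2 lines' changes differed by 0.48 on the log2 scale (interval of 1.96 SE on either side -0.22 to 1.18, edgeR FDR 0.594), so that a difference was not shown.

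*Slc18a2*, on chromosome 19 from 59260878 to 59296012 (plus strand), was almost the same in the *Sox2* line controls, at 405.5, 401 and 403 CPM. In mutants 1, 3 and 4 it was at 124, 111 and 134 CPM. The mutants thus kept 30.6% of the control level (-1.71 ± 0.08, edgeR FDR 8.27e-06). In the *Nr2f1* line, controls B, D and E had 432, 346 and 399 CPM and mutants A, B and C had 429, 446 and 378 CPM. These groups overlapped throughout, and the change was 0.09 ± 0.09 on the log2 scale (edgeR FDR 0.573). The difference between the lines was -1.79 (SE 0.12, interval -2.04 to -1.55, edgeR FDR 4.56e-06). It was called in 16 of 16 alternative fits, which ranged from -1.86 to -1.70.

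Per kb of transcript, *Slc6a4* amounted to between 11.3 and 23.8% of *Slc18a2* in *Nr2f1* line controls and to between 3.22 and 6.25% in *Nr2f1* mutants. In the *Sox2* line the same share was 24.2 to 27.6% in controls and 25.5 to 40.1% in mutants, which overlapped. In bulk tissue, fewer cells of a type and less RNA per cell cannot be told apart. *Slc17a6* fell in *Sox2* mutants by 0.96 on the log2 scale (edgeR FDR 0.000336) and was at -0.04 in *Nr2f1* mutants (FDR 0.836). The ratio of *Slc18a2* to *Slc17a6* CPM went from between 1.50 and 2.02 in *Sox2* line controls to between 0.938 and 1.16 in the mutants, while it lay between 1.53 and 1.82 in all 6 libraries of the *Nr2f1* line. Of 14 thalamic relay neuron markers, 6 fell and 2 rose in *Sox2* mutants (median log2 fold change -0.13), and 1 fell and 3 rose in *Nr2f1* mutants (median 0.18). *Rora*, the gene that carries Cre, went from between 298 and 364.5 CPM to between 76.2 and 100.1 in *Sox2* mutants (log2 fold change -1.96, edgeR FDR 2.07e-05). In *Nr2f1* mutants *Rora* lay between 261 and 363 CPM against 343.5 to 413 in controls (-0.25, FDR 0.204). Their part in the transporters' changes was not tested.

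**Figure D2:**
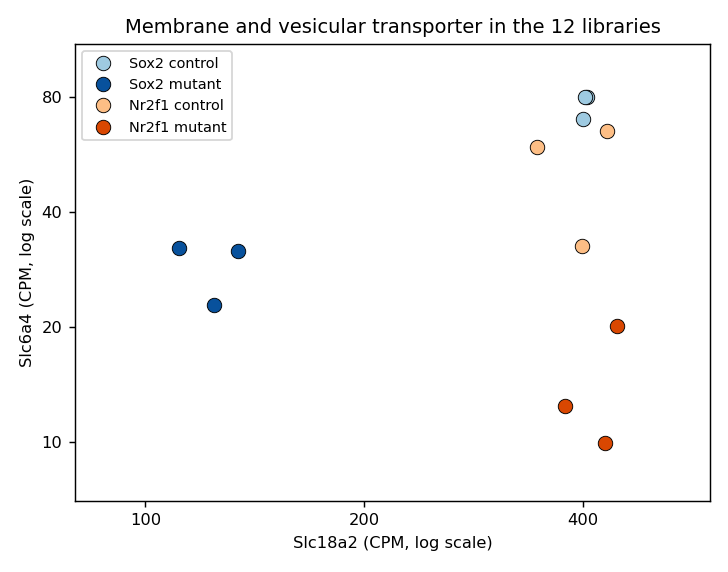
*Slc6a4* against *Slc18a2* in each library, in CPM scaled within each line, both axes on a log scale. *Sox2* mutants sit to the lower left of their controls, whereas *Nr2f1* mutants sit below theirs over an overlapping range of *Slc18a2*, 378 to 446 against 346 to 432 CPM.

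The sequences around the start sites of both transporter genes are shown because only 1 of the genes changed in *Nr2f1* mutants. They run from 250 bases before the start of the RefSeq transcript to 25 bases after it, on the plus strand of GRCm38.p6, at chr11:76998347-76998621 and chr19:59260628-59260902, and are credited to RefSeq. Capitals mark TGACG and TGACGTCA, the half-site and full site of the cyclic AMP response element, which were chosen after the sequences had been read.
Slc6a4: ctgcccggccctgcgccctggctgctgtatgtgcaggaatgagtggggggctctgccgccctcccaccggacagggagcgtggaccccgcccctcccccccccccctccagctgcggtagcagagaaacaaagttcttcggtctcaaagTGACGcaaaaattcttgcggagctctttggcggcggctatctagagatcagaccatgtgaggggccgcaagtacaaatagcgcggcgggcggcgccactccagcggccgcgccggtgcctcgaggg
Slc18a2: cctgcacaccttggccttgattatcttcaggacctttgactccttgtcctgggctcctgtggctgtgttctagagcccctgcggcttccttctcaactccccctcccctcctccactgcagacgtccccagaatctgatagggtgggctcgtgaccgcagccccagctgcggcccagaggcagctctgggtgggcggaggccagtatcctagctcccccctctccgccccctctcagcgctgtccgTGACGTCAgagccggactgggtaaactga
Promoters of 7 of the 8 genes were found in the RefSeq table, all but that of *Maob*, and 300 bases of each (250 before and 50 after the start) were searched on both strands. AGGTCA, the half-site bound by many nuclear receptors including the family of NR2F1, was present in 1 of the 7, *Htr2c*, beside 16.3% of 32851 promoters. ACAATG or AACAAT, core letters of some sites bound by SOX proteins, were found in 0 of the 7, beside 18.7% of all promoters. This says only that these letters are not in these windows. Other forms of the SOX core, such as ACAAAG, were not searched or counted over all promoters. The letters acaaag do stand, unmarked, in the *Slc6a4* sequence shown. TGACGTCA was present in *Slc18a2*, where it spans positions -4 to 4 around the start, beside 1.79% of all promoters. TGACG, which is part of TGACGTCA, was present in *Slc6a4* (positions -101 to -97), *Slc18a2*, *Maoa* and *Htr7*, beside 20.8% of all promoters. The *Htr7* window, with bases 36057336 to 36057610 of chromosome 19, lies inside the gene, whose upstream end is at 36058133. Its match is therefore not upstream of the gene as a whole.

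The genes whose levels most resembled those of the transporters over the 12 libraries were different ones. For *Slc6a4* they were *Rasd1*, a Ras-related GTPase induced by dexamethasone, *Nefh*, the heavy neurofilament subunit, and *Pitpnc1*, a phosphatidylinositol transfer protein (Pearson r of log2 CPM 0.983, 0.978 and 0.967, among 13950 genes). For *Slc18a2* they were *Prkag2*, a regulatory subunit of AMP-activated kinase, *Ift57*, a protein of intraflagellar transport, and *Galnt9*, a glycosyltransferase (r 0.994, 0.986 and 0.986). These 12 points share line and genotype, which separate the libraries, and the r values are descriptions. *Slc6a4* and *Slc18a2* themselves had r of 0.143.

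Of the breakdown enzymes, *Maoa* was called up in *Sox2* mutants, and *Maob* was called in neither line. *Maoa*, on chromosome X from 16619698 to 16687812 (plus strand), encodes the oxidase with high affinity for serotonin. It was at 31.0, 32.9 and 34.7 CPM in *Sox2* line controls and at 50.2, 54.1 and 51.3 CPM in mutants, without overlap. Mutants had 158% of the control level (0.66 ± 0.07, edgeR FDR 0.000385). *Nr2f1* line controls had 25.2, 28.3 and 26.4 CPM and mutants had 34.0, 29.9 and 39.6 CPM. These groups did not overlap either, but mutant B was close to control D, and the gene was not called (0.37 ± 0.10, edgeR FDR 0.0565). Without mutant B it was called at 0.47 (edgeR FDR 0.00908), and DESeq2 called it with all libraries (FDR 0.00874). The difference between the lines was 0.29 (interval 0.04 to 0.55, edgeR FDR 0.292).

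*Maob*, 21.5 kb from *Maoa* on the opposite strand (X:16709281-16817366), encodes the oxidase that prefers phenethylamine and is found in astrocytes and serotonergic neurons. It was much lower, with 66, 68 and 66 counts in *Sox2* line controls (1.49, 1.61 and 1.63 CPM) and 130, 102 and 115 counts in mutants (3.17, 2.33 and 2.54 CPM). In the *Nr2f1* line, controls had 0.952, 1.20 and 1.59 CPM and mutants 2.54, 2.12 and 2.34 CPM. Every mutant library was above every control library in both lines, and still neither change was called, at 0.76 ± 0.20 (edgeR FDR 0.0272) and 0.90 ± 0.23 (FDR 0.0473) on the log2 scale. The lines differed by -0.13 (interval -0.70 to 0.44, edgeR FDR 0.898). Of 9 astrocyte markers, 6 were called up in *Sox2* mutants and 1 in *Nr2f1* mutants, and their summed level went from 1898 to 2275 CPM in controls to 2880 to 3338 CPM in *Sox2* mutants and from 1640 to 1698 to 1825 to 2008 CPM in *Nr2f1* mutants. The astrocyte filament gene *Gfap* rose by 1.28 on the log2 scale in *Sox2* mutants (edgeR FDR 0.000108) and was at 0.54 in *Nr2f1* mutants (FDR 0.101). The part of astrocyte RNA in *Maob* was not tested.

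*Maoa* is also made by vascular and meningeal cells. Of 7 endothelial, 6 pericyte and 7 meningeal fibroblast genes, 0 were called in either line by edgeR. At an unadjusted p below 0.05, 6, 5 and 3 were higher in *Sox2* mutants and 7, 2 and 7 in *Nr2f1* mutants, and DESeq2 called 0, 1 and 0 and 3, 1 and 0. The lists' medians were 0.38, 0.39 and 0.71 in *Sox2* mutants and 0.44, 0.23 and 0.98 in *Nr2f1* mutants. The summed meningeal level lay between 928 and 1863 CPM in *Sox2* line controls and between 1425 and 3240 CPM in the mutants. In the *Nr2f1* line it lay between 708 and 1076 CPM in controls and between 1027 and 2387 CPM in mutants. The ranges overlapped in both lines. *Sox2* control 3 and mutant 3 had the highest *Maoa* and the highest of all 7 meningeal genes in their groups. *Nr2f1* mutant B had the lowest of each. The lowest *Sox2* line control was control 1 for *Maoa* but control 2 for *Dcn*. These libraries were picked after their values were seen. *Maoa*, *Maob* and *Htr2c* are all on chromosome X, and 3 libraries lacked *Xist*. Of these, *Sox2* mutant 1 and *Nr2f1* control E had the highest *Maob* and *Htr2c* of their groups. For *Maoa*, however, mutant 1 was the lowest of its group and control E in the middle. *Sox2* control 2 was in the middle of its group for all 3 genes. *Nr2f1* mutant A, the pool with Y-linked genes at 0, had the highest *Maob* of its group (2.54 CPM). It was in the middle for *Maoa* and *Htr2c*. The part of the pools' sex and of vascular and meningeal cells was not tested.

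**Figure D3:**
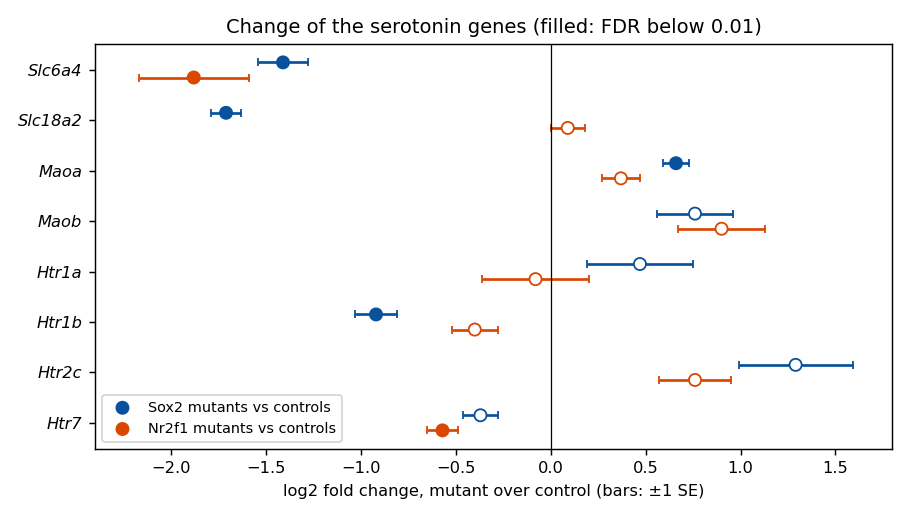
Log2 fold change of each gene in mutants over controls of the same line (horizontal axis), with bars of ±1 SE from edgeR. Filled points have FDR<0.01 and open points do not. *Slc18a2* is at -1.71 in *Sox2* mutants and 0.09 in *Nr2f1* mutants, and the other 3 genes called in *Sox2* mutants lie on the same side of 0 in both.

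Among the receptors, *Htr1b*, a Gi-coupled receptor carried to the axon terminals of thalamocortical neurons, fell in *Sox2* mutants. It lies on chromosome 9 from 81628291 to 81633832 (minus strand). Its levels were 33.5, 27.5 and 25.4 CPM in controls and 15.3, 14.9 and 15.6 CPM in mutants, which were within 1 CPM of each other and far from every control. Mutants had 53.0% of the control level (-0.92 ± 0.11, edgeR FDR 0.000594). In the *Nr2f1* line, controls had 38.5, 27.6 and 33.0 CPM and mutants 24.3, 27.8 and 23.2 CPM. Mutant B was above control D, so that these groups overlapped, and the change of -0.40 ± 0.12 (edgeR FDR 0.0773) was not called, whereas DESeq2 called it (FDR 0.00938). The lines differed by -0.51 (interval -0.85 to -0.17, edgeR FDR 0.138). The antisense gene *D430036J16Rik* overlaps *Htr1b*, and whether the counting used the strand is not given in the sources used here, so that reads of the pair may not be separated. It had 24.2, 19.0 and 17.3 CPM in *Sox2* line controls and 11.2, 14.8 and 13.9 CPM in mutants (-0.60 ± 0.15, edgeR FDR 0.0212). In GENCODE, *Slc6a4* and *Slc18a2* also overlap an antisense gene each, *Gm12343* and *Gm29261*. *Htr1b* is 12.2 Mb from *Rora*, on the chromosome that carries Cre in the mutants of both lines.

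*Htr7*, the Gs-coupled receptor gene on chromosome 19 from 35958415 to 36058133 (minus strand), was the member other than *Slc6a4* that fell in *Nr2f1* mutants. Controls B, D and E had 34.9, 33.6 and 35.7 CPM and mutants A, B and C had 21.2, 26.0 and 23.1 CPM. The groups were well apart, and mutants had 67.4% of the control level (-0.57 ± 0.08, edgeR FDR 0.0038). In the *Sox2* line, controls had 37.5, 38.6 and 32.3 CPM and mutants 27.0, 29.7 and 27.4 CPM. These did not overlap either, but the gene was not called (-0.37 ± 0.09, edgeR FDR 0.0197). Without control 3, the lowest control, it was called at -0.43 (edgeR FDR 0.00528), as it was with DESeq2 (FDR 0.00312) and in one fit over 12 libraries (edgeR FDR 0.00844). The call in *Nr2f1* mutants was lost without control B, D or E or mutant A or C, with log2 fold changes between -0.59 and -0.50 and edgeR FDR between 0.0141 and 0.0212. The lines differed by 0.21 (interval -0.03 to 0.45, edgeR FDR 0.45).

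*Htr2c*, on chromosome X from 146962464 to 147197277 (plus strand), encodes the Gq-coupled 2C receptor, which epithelial cells of the choroid plexus make in quantity. It was at 3.55, 2.91 and 1.31 CPM in *Sox2* line controls (157, 123 and 53 counts) and at 7.01, 6.59 and 5.42 CPM in mutants. All mutants were above all controls, and control 3 was the lowest library. The change of 1.29 ± 0.30 (edgeR FDR 0.0152) was not called at FDR<0.01. Without control 3 it was 0.98 and called (edgeR FDR 0.00409), and it was also called with DESeq2 (FDR 0.000112), without the filter (edgeR FDR 0.00677) and in one fit over 12 libraries (0.00384). In the *Nr2f1* line, controls had 2.69, 2.44 and 3.91 CPM and mutants 5.17, 4.72 and 5.38 CPM, without overlap and without a call (0.76 ± 0.19, edgeR FDR 0.0429), although DESeq2 called it (FDR 0.00597). The lines differed by 0.54 (interval -0.21 to 1.29, edgeR FDR 0.563).

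Of 9 choroid plexus markers, 1 was called up in *Sox2* mutants (*Otx2*, which thalamic and midbrain cells also use, at 0.48, edgeR FDR 0.00856) and 0 in *Nr2f1* mutants by edgeR (5 at an unadjusted p below 0.05, 1 with DESeq2), with medians of 0.67 and 0.59. Their summed level was 92.1 to 197 CPM in *Sox2* line controls and 129 to 233 in mutants, and 92.4 to 125 and 118 to 162 CPM in the *Nr2f1* line. The transthyretin gene *Ttr*, the most specific of them, had 112, 36.8 and 3.38 CPM in *Sox2* line controls 1, 2 and 3, the same order as *Htr2c*, and 133, 12.4 and 91.2 CPM in mutants 1, 3 and 4. Mutant 3, with 12.4 CPM of *Ttr*, had 6.59 CPM of *Htr2c*, and control 1, with 112 CPM of *Ttr*, had 3.55 CPM. Control 3 was lowest in both genes. In the *Nr2f1* line *Ttr* was at 28.7, 21.7 and 55.5 CPM in controls and 45.7, 44.9 and 68.7 CPM in mutants. This was the order of *Htr2c* in both groups of that line, whereas the order differed in *Sox2* mutants. The part of choroid plexus RNA in *Htr2c* was not tested.

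*Htr1a*, on chromosome 13 from 105443693 to 105448133 (plus strand) and 27.2 Mb from *Nr2f1*, encodes the Gi-coupled receptor of hippocampal, cortical and raphe neurons. It had the lowest mean of the 8 genes per length in controls of both lines, although its range overlapped that of *Htr2c* in the *Sox2* line. *Sox2* line controls had 2.33, 2.22 and 1.21 CPM and mutants 3.09, 1.99 and 2.94 CPM, which overlapped (0.47 ± 0.28, edgeR FDR 0.263). *Nr2f1* line controls had 1.50, 1.06 and 1.09 CPM and mutants 0.828, 1.47 and 1.12 CPM, which overlapped throughout (-0.08 ± 0.28, edgeR FDR 0.891). The sign in the *Nr2f1* line turned to 0.09 without control B and to 0.10 without mutant A. Of 7 markers of pallial and hippocampal neurons, 0 were called by edgeR in either line (5 and 0 at an unadjusted p below 0.05, 1 and 0 with DESeq2). They had a median of 1.27 in *Sox2* mutants and of -0.16 in *Nr2f1* mutants. *Neurod6*, one of them, chosen after its values were seen, was at 10.3, 6.18 and 3.04 CPM in *Sox2* line controls 1, 2 and 3 and at 31.5, 7.03 and 16.6 CPM in mutants 1, 3 and 4, which is the order of *Htr1a* within each group of that line. Its *Nr2f1* line levels were 4.90, 5.34 and 3.76 CPM in controls B, D and E and 4.09, 3.34 and 5.36 CPM in mutants A, B and C, where the order was not that of *Htr1a* in either group. The part of these neurons was not tested.

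**Figure D4:**
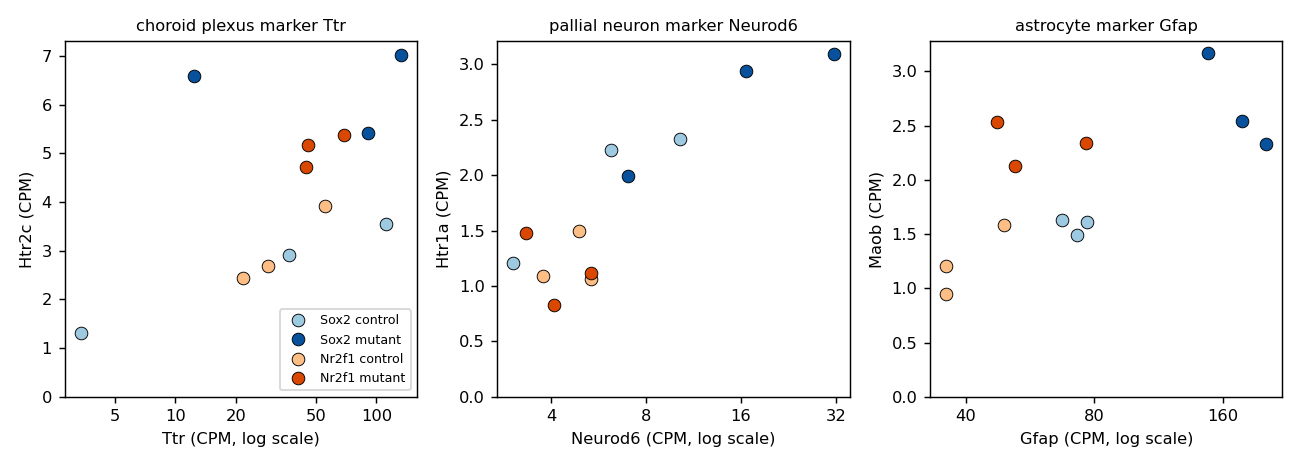
Markers of other cell types beside the member those cells are known to express, in CPM by library (marker on a log axis, member on a linear axis from 0). *Htr2c* is above 4 CPM in all mutants over a range of *Ttr* from 12.4 to 133 CPM, *Htr1a* is highest where *Neurod6* is highest (31.5 CPM), and *Maob* is higher in all mutants than in the controls of their line.

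Around the 8 genes, 51 other genes of the serotonin pathway were listed, of which the filter left 43 for *Sox2* mutants and 44 for *Nr2f1* mutants. In *Sox2* mutants 6 fell and 2 rose (median log2 fold change 0.14), and in *Nr2f1* mutants 2 fell and 1 rose (median -0.04), by edgeR at FDR<0.01. Over all genes tested, 4.19% fell and 3.90% rose in *Sox2* mutants, and 1.32% fell and 1.22% rose in *Nr2f1* mutants. The 2 and 1 pathway genes that rose were near these shares. For synthesis, 6 of 7 genes were tested, and 0 were called in either line by edgeR (1 in each at an unadjusted p below 0.05, 0 with DESeq2). *Ddc*, which decarboxylates the serotonin precursor, had 0.35 and 0.25 (edgeR FDR 0.208 and 0.427), at 2.90 to 5.02 CPM over the 12 libraries. Among the other transporters of monoamines, 0 of 3 and 0 of 5 tested genes were called by edgeR, 0 had an unadjusted p below 0.05 and DESeq2 called 0. The most abundant of them was *Slc29a4*, the low-affinity plasma membrane monoamine transporter, which lay between 92.9 and 118 CPM in all libraries and had log2 fold changes of -0.16 and -0.09 (edgeR FDR 0.16 and 0.407). Of 6 genes for the further breakdown of amines, 0 were called by edgeR (2 in *Sox2* and 1 in *Nr2f1* mutants at an unadjusted p below 0.05, 1 and 0 with DESeq2). *Aldh2*, the aldehyde dehydrogenase that follows monoamine oxidase, was at 0.28 in *Sox2* mutants (edgeR FDR 0.0212) and at 0.05 in *Nr2f1* mutants (FDR 0.657).

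Of the 10 other receptors, 5 were below 1 CPM in every library. *Htr5a*, a Gi-coupled receptor, was called down in *Sox2* mutants, at 10.3 to 12.8 CPM against 16.1 to 20.9 CPM in controls (log2 fold change -0.65, edgeR FDR 0.00735). In *Nr2f1* mutants it was at -0.09 (FDR 0.778). *Htr4* in *Sox2* mutants (-1.02, edgeR FDR 0.0184) and *Htr2a* in *Nr2f1* mutants (1.15, edgeR FDR 0.0396) had larger fold changes that edgeR did not call. Both were low, *Htr4* at 3.54 CPM at most and *Htr2a* at 2.18. The largest was that of *Htr3a* in *Sox2* mutants, 1.61, also not called by edgeR, at 0.553 CPM at most. DESeq2 called 2 of the 7 receptors tested down in *Sox2* mutants and 1 of 6 up in *Nr2f1* mutants.

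The G proteins and effectors of the receptors held most of the calls, with 7 of 21 in *Sox2* mutants and 3 of 21 in *Nr2f1* mutants. They were also the longest list, with 21 of the 43 and 44 pathway genes tested. These proteins serve many other receptors as well. The adenylyl cyclase gene *Adcy9* fell in both, by 0.62 and 0.54 on the log2 scale (edgeR FDR 0.00168 and 0.00142). *Adcy2* fell in *Sox2* mutants (-0.63, edgeR FDR 0.00517), as did *Gnal*, a Gs-like subunit (-0.36, FDR 0.00718), whereas *Gnai2*, a Gi subunit, rose (0.47, FDR 0.00663). *Adcy5* fell in *Nr2f1* mutants (-0.38, edgeR FDR 0.00255).

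Phospholipase C and potassium channel genes moved in both directions. *Plcb4* fell in *Sox2* mutants (-0.78, edgeR FDR 0.000444) and was at -0.13 in *Nr2f1* mutants (FDR 0.359), and it was the 1 gene of the 46 tested for a difference between the lines that was called (-0.65, edgeR FDR 0.00715). *Plcb1* rose in *Nr2f1* mutants (0.74, edgeR FDR 0.00212) and had 0.56 in *Sox2* mutants (FDR 0.0302). Of the channel subunits opened by Gi-coupled receptors, *Kcnj3* rose in *Sox2* mutants (1.03, edgeR FDR 0.000333) and *Kcnj6* fell (-0.81, FDR 0.00536). *Gnai2* is also abundant in microglia, of whose 8 markers 7 were called up in *Sox2* mutants and 0 in *Nr2f1* mutants by edgeR (5 at an unadjusted p below 0.05, 3 with DESeq2), with summed levels of 98.7 to 113 CPM in *Sox2* line controls and 215 to 248 CPM in mutants. Their part was not tested.

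**Figure D5:**
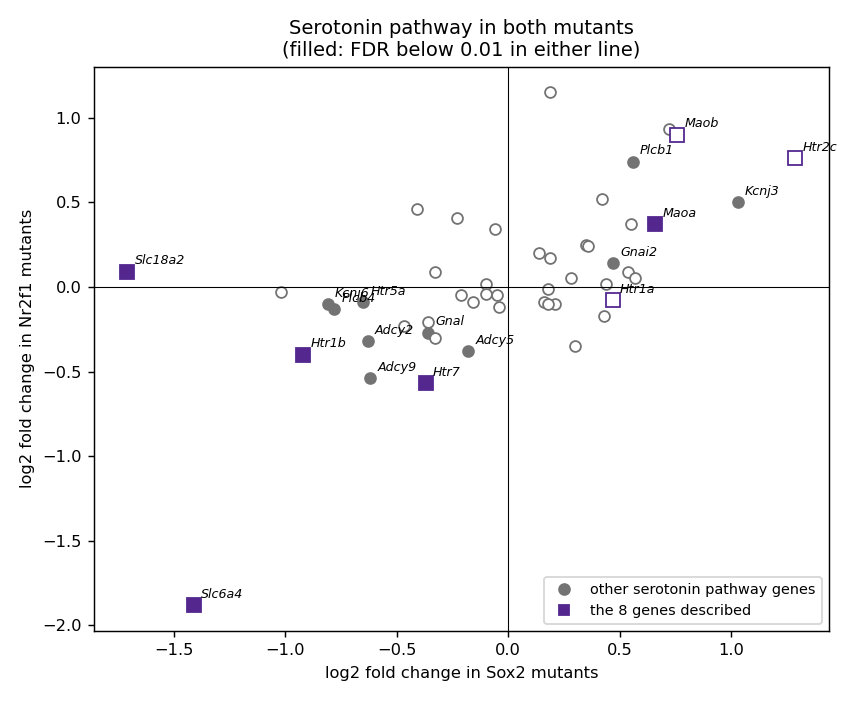
Log2 fold change in *Nr2f1* mutants against that in *Sox2* mutants for the 8 genes (squares) and the other serotonin pathway genes tested in both lines (circles), each line against its own controls. Filled symbols were called at FDR<0.01 in at least 1 line, and *Slc6a4* (-1.41 and -1.88) and *Slc18a2* (-1.71 and 0.09) lie outside the range of the other genes.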

How the data were processed

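The values are expected counts per gene from RSEM that the authors deposited, 1 table for each line, after alignment with STAR to the RefSeq mouse transcriptome. The submitters' processing notes name mm10. Strand use is not given in the sources used here. Of the values, 7.77% were not whole, and all were rounded. Column names gave only the group. Counts were tested with edgeR 4.0.16 (glmQLFit, glmQLFTest) in R 4.3.3. Low genes were first removed by filterByExpr (at least 10 counts, total of at least 15) and libraries scaled by TMM. The contrast was mutants against controls of their line, with Benjamini-Hochberg adjustment over all genes tested (FDR). Calls were made at FDR<0.01, and the SE is the log2 fold change over the root of F. Alternatives were DESeq2 1.42.0, no filter, upper quartile normalization, 10 counts in every library, one fit over 12 libraries, FDR<0.05, a replicate block, the longest transcript for levels, the mean of the marker list, and leaving out each library. The 8 genes, the pathway list (51 genes) and the 17 marker lists were chosen with earlier results of these data known. Genes named are the 8, the targeted genes and *Rora*, pathway genes called in either line or in the difference, markers of cell types known to express a member, and the 3 genes most correlated with each transporter among those with mean CPM of at least 1 (log2 of CPM + 0.5). Other named pathway genes (*Ddc*, *Slc29a4*, *Aldh2*, *Htr4*, *Htr2a*, *Htr3a*) and the pallial and microglial markers were chosen after their values were seen. So were *Prox1*, *Calb2*, *Gbx2* and *Elavl4*. Positions are from RefSeq and lengths and overlaps from GENCODE on GRCm38. In simulated counts with 200 genes changed by 1 on the log2 scale, 89.5% were called in the *Sox2* line, 90% in the *Nr2f1* line and 73.5% for the difference. The changed genes were drawn only from those above a floor in mean count, and all others were left unchanged. These shares therefore do not hold for smaller changes or for genes with few counts.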

Additional observations from a re-analysis of the deposited data

Results flagged for a closer look

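In the fit over 12 libraries, edgeR's test of line by genotype called a difference between the mutants for the genes that follow. *Slc18a2* differed by -1.79 on the log2 scale (change in *Sox2* mutants minus change in *Nr2f1* mutants, edgeR FDR 4.56e-06), *Rora* by -1.70 (FDR 0.000118), *Slc17a6* by -0.91 (FDR 0.00467) and *Plcb4* by -0.65 (FDR 0.00715). Of the other relay neuron markers, *Prox1* differed by -1.93 (edgeR FDR 9.85e-05) and *Calb2* by 0.93, in the other direction (FDR 0.00207). The neuronal gene *Elavl4* differed by -0.52 (FDR 0.00851). The microglial genes *Cx3cr1*, *P2ry12* and *Trem2* differed by 0.69, 1.48 and 1.32 (FDR 0.00402, 0.000419 and 0.00264). The targeted genes differed as well, *Sox2* by -0.84 (edgeR FDR 0.00603) and *Nr2f1* by 1.19 (FDR 0.00742). *Hdc*, histidine decarboxylase, which makes histamine, another substrate of the transporter encoded by *Slc18a2*, differed by -3.37 (edgeR FDR 2.09e-06). It went from between 22.1 and 26.3 CPM in *Sox2* line controls to between 2.73 and 4.51 in the mutants (-2.82, edgeR FDR 2.49e-05), and from between 21.0 and 23.5 to between 28.5 and 34.6 CPM in the *Nr2f1* line (0.55, FDR 0.00635). The mast cell genes listed with it were 0 of 4 called in *Sox2* mutants and 0 of 3 in *Nr2f1* mutants among those tested by edgeR (2 and 1 at an unadjusted p below 0.05, 0 with DESeq2), with *Tpsb2* the highest at 14.2 CPM in 1 library.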

How the results depend on the processing

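Of 312 single-gene values under alternatives, 309 kept their direction. Those that reversed were *Htr1a* in *Nr2f1* mutants without control B (0.09) and without mutant A (0.10, over leave-one-out fits -0.31 to 0.10), and the difference of *Maob* between the lines without control B (0.04, range -0.33 to 0.04). Genes of the 8 called in *Sox2* mutants were 4, with 7 at FDR<0.05, 6 with DESeq2 and in one fit over 12 libraries (*Htr2c* and *Htr7* in addition), and 5 without the filter. In *Nr2f1* mutants they were 2, with 4 at FDR<0.05, 5 with DESeq2, and 0 to 3 when single libraries were left out (0 without control B, control D, mutant A or mutant C, 1 without control E). The cause was not tested. In *Sox2* mutants leaving out a library gave 4 to 6. Over all genes, DESeq2 called 2452 and 1108 against 1261 and 396 with edgeR and 540 against 231 for the difference, and leaving out single libraries gave 494 to 2161 calls in the *Sox2* line (the most without control 3) and 133 to 868 in the *Nr2f1* line (the most without mutant B). Without the filter 581 genes were called in the *Nr2f1* line. A replicate block could be fitted only in the *Sox2* line, where columns share 2 numbers that may name nothing else (deviations correlated at 0.227 and 0.223). Control 2 and mutant 4 have no partner there, so that the genotype effect rested on the 2 shared numbers alone. Little was left in that fit to estimate the spread, and its calls and FDR are not given. The log2 fold changes were 1.59 for *Htr2c*, -1.56 for *Slc6a4*, -1.78 for *Slc18a2*, 0.67 for *Maoa*, -0.95 for *Htr1b* and -0.30 for *Htr7*. No paired analysis was possible in the *Nr2f1* line or for the difference because its groups share 1 letter only. Depth limits *Maob*, *Htr1a* and *Htr2c*, the 3 genes under 8 CPM.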

Other observations

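Marker lists of cells not set beside a gene above were also counted, by edgeR at FDR<0.01. Of 10 genes of neurons of any kind, 3 fell in *Sox2* mutants and 1 in *Nr2f1* mutants, with medians of -0.15 and -0.13. Of 7 oligodendrocyte lineage genes 1 rose in each line (medians 0.26 and 0.11). Of 9 genes of GABAergic neurons, 0 were called by edgeR in either line, while 9 and 6 were higher at an unadjusted p below 0.05 and DESeq2 called 6 and 1. Of 6 habenula genes 1 fell in *Sox2* mutants and 0 in *Nr2f1* mutants by edgeR. In *Nr2f1* mutants, however, 2 were lower at an unadjusted p below 0.05 and DESeq2 called 2 down. The 5 retinal ganglion cell genes were below 1 CPM in all libraries. How these lists relate to the serotonin genes was not tested.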
